A study of Homo sapiens with 6 samples.

Results

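The 35 genes described here encode cytosolic heat shock proteins, the cochaperones that work with them and the chaperonin CCT, together with the heat shock factors HSF1 and HSF2. They were chosen by name, not by any measured value, though with earlier results of these data known. They make up 35 of the 33470 gene symbols to which the deposited transcripts could be assigned. They fall into 2 heat shock factors, 7 HSP70 and HSP110 proteins, 2 HSP90 proteins, 6 HSP40 (J-domain) proteins, 2 genes of the small heat shock protein nomenclature, 3 BAG cochaperones, 5 HSP90 cochaperones and 8 CCT subunits. RNA came from 6 cultures of K562 cells, an erythroleukaemia line that makes embryonic and fetal globins. A line with a non-targeting shRNA (NT) and clones c1 and c2 with an shRNA against CDAN1, the gene mutated in a congenital dyserythropoietic anaemia, were each taken at day 4 without doxycycline (uninduced) and with 1 µg/ml doxycycline to switch on the shRNA (induced). All cultures were kept in puromycin, so this drug is common to all groups, and each line and state is 1 library. The labels name no separate cultures of a line and state, so a p-value covers no more than the spread among these 6 libraries, and a difference between lines compares single derived lines.

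HSP70 proteins bind unfolded stretches of a protein in a cycle driven by ATP, in which J-domain proteins deliver the client and BAG and HSP110 proteins exchange the nucleotide. HSP90 and its cochaperones take over clients such as kinases and steroid receptors, and CCT is a double-ring chaperonin that folds actin and tubulin. Heat shock factor 1 drives the stress-inducible members through repeats of the pentamer nGAAn, heat shock factor 2 binds the same element and was described in K562 cells treated with hemin, and HSP70 protects the transcription factor GATA1 from cleavage during red cell maturation.

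The heat shock element was looked for in the RefSeq promoter windows of GRCh38.p14 (250 bases before to 50 bases after a transcript start), which held 30 of the 35 members. The motif with 3 units, GAANNTTC continued by NNGAA, was searched on both strands, so that it also reads as TTCNNGAA continued by NNTTC. It was in a window of 6 of 30 member genes (20%) and of 166 of 27305 genes with a window (0.608%). The 6 are HSPA8, HSP90AA1, HSP90AB1, DNAJA1, DNAJB6 and CHORDC1. Matches with 2 units (GAANNTTC or TTCNNGAA), which every longer match also contains, were in 17 of the 30 members (56.7%) and in 16.2% of all genes, and HSPA1A, HSPA1B, DNAJB1 and HSPB1 were among them. The stretches below are a selection, and matches in other members, DNAJA1, CHORDC1 and HSPB1 among them, are not printed. Capitals mark the match, letters run along the strand of the gene, and a match describes letters only, not binding.
HSPA8, 3 units, chr11:123062171-123062199, minus strand: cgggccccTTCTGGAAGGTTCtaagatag
HSP90AA1, 3 units, chr14:102087112-102087140, minus strand: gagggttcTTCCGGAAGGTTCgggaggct
HSP90AB1, 3 units, chr6:44247823-44247851, plus strand: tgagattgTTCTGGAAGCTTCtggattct
DNAJB6, 3 units, chr7:157336865-157336893, plus strand: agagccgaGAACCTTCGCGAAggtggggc
HSPA1A, 2 units, chr6:31815426-31815455, plus strand: cgaaaaccctgGAATATTCccgacctggca
HSPA1B, 2 units, chr6:31827622-31827651, plus strand: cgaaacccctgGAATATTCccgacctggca
DNAJB1, 2 units, chr19:14518456-14518485, minus strand: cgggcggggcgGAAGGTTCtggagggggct
Relative to the first transcribed base, counted as 0, the match shown begins at -55 in HSPA8, -88 in HSP90AA1, -112 in HSP90AB1, -131 in DNAJB6, -106 in HSPA1A, -105 in HSPA1B and -77 in DNAJB1. HSPA8 holds another 3-unit match at -230 and HSP90AB1 at -165. DNAJB1 holds further 2-unit matches at -47 and 1, and each position is counted from the transcript start of its own window. The HSPA1A and HSPA1B stretches are nearly the same letters, as are the genes themselves. Their open reading frames are 1926 bases long each and differ at 4 positions (99.8% identity), and 95.6% of the 31-base words of the HSPA1A frame recur in HSPA1B, whereas 0% recur in HSPA8.

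The libraries held 28318555 to 32352246 estimated reads, of which mitochondrially encoded transcripts took 4.25% to 6.02%. CDAN1, the target of the shRNA, stood at 61.6 CPM (counts scaled to a common library size) in uninduced and 69.2 in induced NT, at 36.1 and 16.7 in c1 and at 54.8 and 29.4 in c2, so the induced library of each CDAN1 shRNA clone was the lower of its pair. All 13 erythroid markers of K562 reached 1 TPM (a level per length) in at least 1 library, and their sum was 40651 and 44689 TPM in NT, 40827 and 43750 in c1 and 29734 and 33297 in c2. Of markers of other cells, the 5 megakaryocyte genes summed to 7.05 to 22.6 TPM in NT and c1 and to 85.6 and 95.9 in c2. The 3 B cell genes summed to at most 1.8 TPM and the 3 fibroblast genes to at most 5.57. Monocyte genes summed to 57.3 to 86.2 TPM with CSF1R and FCGR1A under 1 TPM, T cell genes to 21.7 to 68.8 with CD3E and CD2 under 1 TPM, and the 4 epithelial genes, 3 of them keratins, to 655 to 921. Their part in the differences between lines was not tested.

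Per length, the chaperonin and the major HSP70 and HSP90 genes dominated the set. The 35 genes summed to 10355 to 12111 TPM, or 1.035% to 1.211% of all transcripts. The 8 CCT subunits summed to 3235 to 3615 TPM, the HSP70 and HSP110 genes to 2323 to 3110 and the HSP90 genes to 2413 to 3018, so the last 2 groups overlapped over the libraries. HSP90 cochaperones followed at 1095 to 1274 TPM, the small heat shock protein genes at 432 to 564, HSP40 genes at 396 to 525, which overlap, and BAG genes at 92.8 to 119.

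**Figure D1:**
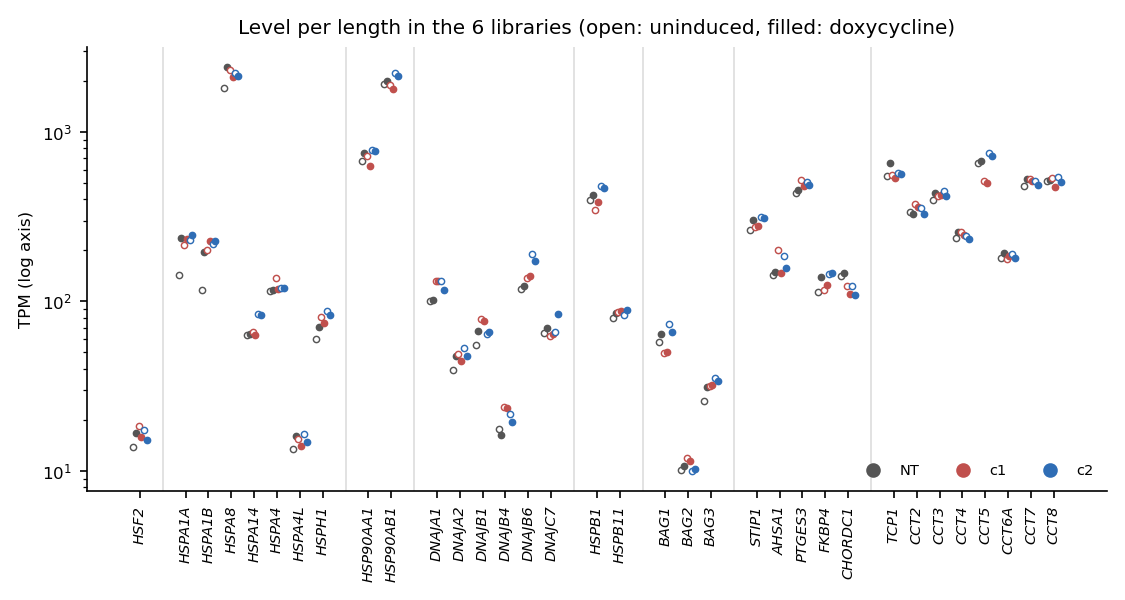
TPM (log axis) of the 34 members above the filter on low counts in each of the 6 libraries, with vertical lines between the groups in the order of the text, grey for NT, red for c1 and blue for c2. HSPA8 and HSP90AB1 have means of 2167 and 1997 TPM and BAG2 of 10.7, and the spread over libraries is small beside the spread between genes.

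The constitutive HSP70, HSPA8 (HSC70), had the highest mean of all members, at 1811 TPM in uninduced and 2411 in induced NT, 2328 and 2106 in c1 and 2220 and 2127 in c2. Between 29.8% and 34.7% of this sat on HSPA8-220, a processed transcript of 465 bases, and the mean was lower, going from 2167 TPM to 1431, when only protein-coding transcripts were summed. HSP90AB1, with a mean of 1997 TPM on either count, was then the highest member, and with all transcripts it was above HSPA8 in uninduced NT and both c2 libraries. HSP90AB1, the constitutive HSP90, ranged from 1781 TPM in induced c1 to 2236 in uninduced c2, and HSP90AA1, the stress-responsive one, from 632 to 781 in the same 2 libraries. Their ratio kept to 2.65 to 2.86 over the 6 libraries. The lowest of the HSP70 group was HSPA4L, an HSP110-type exchange factor, at 13.5 and 16.1 TPM in NT, 15.3 and 14 in c1 and 16.4 and 14.8 in c2.

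Among the J-domain proteins, DNAJB6, which suppresses aggregation of polyglutamine proteins, had the highest mean at 148 TPM. It read 118 TPM in uninduced and 124 in induced NT, 138 and 141 in c1 and 190 and 174 in c2, so both c2 libraries were the highest. Over coding transcripts its mean was 114 TPM, below the 117 of DNAJA1. DNAJB4 was the lowest of the group at 16.2 to 23.7 TPM. Of the small heat shock protein genes, HSPB1 (HSP27) stood at 345 to 481 TPM and HSPB11, which carries an HSPB symbol but belongs to the intraflagellar transport machinery, at 79.8 and 85.8 in NT, 86.6 and 88 in c1 and 83 and 89 in c2. BAG1 was the highest BAG gene at 49.4 to 73.9 TPM and BAG2, an inhibitor of the ubiquitin ligase CHIP, the lowest at 9.98 to 11.9.

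Of the HSP90 cochaperones, PTGES3 (p23), which stabilises the closed HSP90 dimer, was highest at 435 and 454 TPM in NT and 477 to 517 in the 4 clone libraries. CHORDC1 had the lowest mean, at 126 TPM, with 141 in uninduced and 147 in induced NT, 123 and 111 in c1 and 124 and 109 in c2. FKBP4, a prolyl isomerase of steroid receptor complexes, at 113 to 148 TPM overlapped with it. Summed over coding transcripts alone, AHSA1, the activator of the HSP90 ATPase, fell from a mean of 164 TPM to 97.7 and became the lowest.

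The 8 CCT subunits enter the ring in equal number, but their transcripts differed by 2.92 to 4.02 times within a library. CCT6A was the lowest in every library, at 181 and 193 TPM in NT, 177 and 184 in c1 and 191 and 180 in c2. CCT5 had the highest mean at 637 TPM and was the highest in the NT and c2 libraries, while in both c1 libraries TCP1 was the highest. With coding transcripts only, CCT6A remained lowest in all 6 libraries, at 143 to 158 TPM, and CCT8, CCT7 or TCP1 was the highest.

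Most members varied little. Over the 6 libraries 32 of 34 members spanned less than 1.5-fold in CPM, as did 53.2% of all 14156 genes tested, and among genes averaging at least 100 CPM the counts were 22 of 24 members and 86.8% of 2417 genes. The exceptions were HSPA1A and HSPA1B, the heat-inducible HSP70 genes, at 1.63-fold and 1.9-fold. BAG1, CCT5 and DNAJB1 followed at 1.49, 1.45 and 1.44. The uninduced NT library was the lowest of the 6 for 14 of 34 members (41.2%, against 15.4% of all genes) and the highest for 0 of them.

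HSPA1A was lowest in uninduced NT, at 298 CPM, against 478 in induced NT, 433 and 473 in uninduced and induced c1 and 449 and 486 in c2. HSPA1B was lowest in the same library, with 247 CPM in uninduced and 402 in induced NT, 411 and 471 in c1 and 435 and 455 in c2. The estimates divide shared reads between these copies, so the sum is the surer value, and it was 545, 880, 844, 944, 884 and 941 CPM in the same order of libraries. One library, uninduced NT, thus stood below the other 5, which lay close together. The ratio of HSPA1A to HSPA1B was 1.2 and 1.19 in NT, 1.05 and 1 in c1 and 1.03 and 1.07 in c2. It was thus higher in NT than in either clone and moved little within a line.

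These reads were carried by transcripts that the GENCODE 29 annotation of the primary assembly does not hold. HSPA1A lies at chr6:31815464-31817946 and HSPA1B at chr6:31827735-31830255 in the major histocompatibility complex, for which several haplotypes are annotated. The main transcripts of both, ENST00000400040 and ENST00000391555, were named through the GENCODE 29 table of gene symbols, and matched by the annotation alone HSPA1A was listed at 0 in all 6 libraries and HSPA1B at 12.4 estimated reads in 1 of them. HSF1 is represented by 1 of the 14 transcripts of the annotation, listed at 0 throughout, so its level is not analysed here and 34 of 35 members entered the tests.

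**Figure D2:**
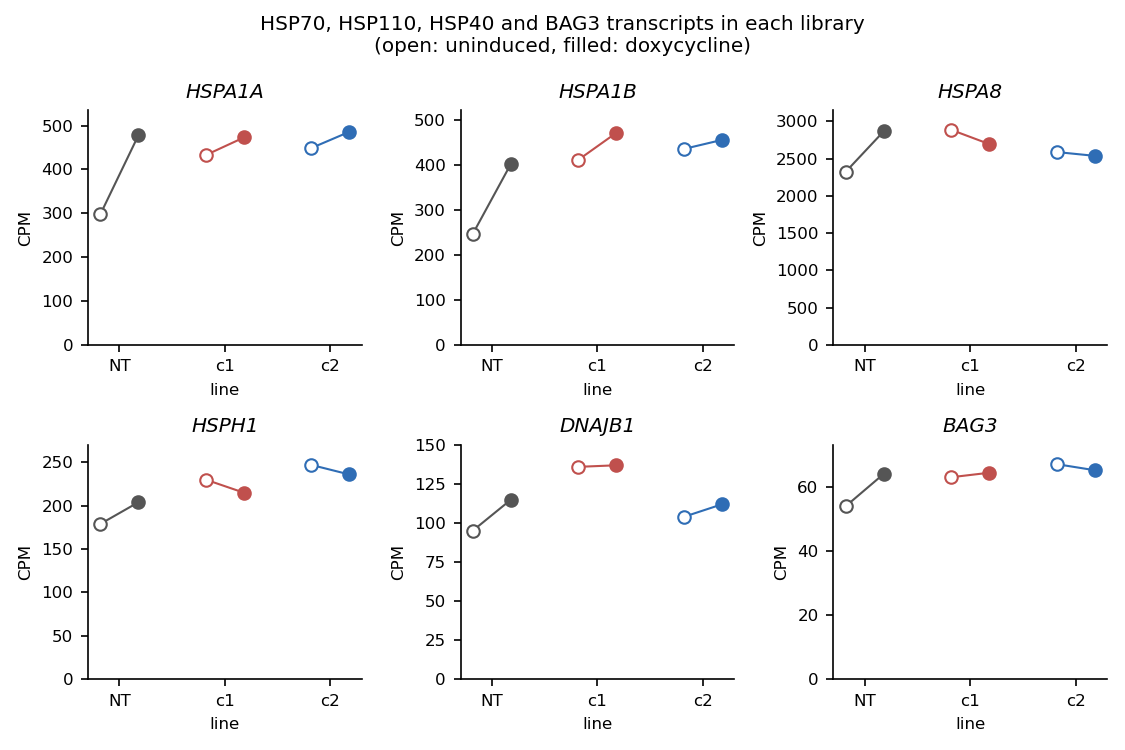
CPM of HSPA1A, HSPA1B, HSPA8, HSPH1, DNAJB1 and BAG3 in each of the 6 libraries, 1 panel a gene with axes from 0. Open points are uninduced and filled points induced libraries, joined within a line. The open NT point is the lowest of the 6 in each panel, and HSPA8, HSPH1 and BAG3 were picked after their values were seen.

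The ratio of induced to uninduced HSP70 transcript was larger in NT than in the CDAN1 shRNA clones, from a lower uninduced level, and induced NT had the lowest sum of the 3 induced libraries. With the uninduced library of each line set to 100%, the summed CPM of HSPA1A and HSPA1B after doxycycline was 161.3% in NT, 111.8% in c1 and 106.5% in c2. The 95% limits were 158 and 164.7 for NT, 110 and 113.8 for c1, and 104.7 and 108.3 for c2. These limits cover counting error only, since each response sets 1 library against 1. Of 2417 genes averaging at least 100 CPM, 2, HSPA1B itself included, had an NT response as large as the 0.70 (log2) of HSPA1B, while in c1 300 were as large as its 0.20 and in c2 455 as its 0.07.

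The response of HSPA8 was 123.4% in NT, 93.39% in c1 and 98.02% in c2, from 2321 and 2865 CPM in NT, 2888 and 2697 in c1 and 2589 and 2538 in c2. Its 95% counting limits were 122.1 and 124.7 for NT, 92.5 and 94.29 for c1, and 97.05 and 99.01 for c2. HSPH1 (HSP105), an HSP110 exchange factor, read 179 and 204 CPM in NT, 230 and 215 in c1 and 247 and 236 in c2. DNAJB1 (HSP40), the main stress-inducible J-domain protein, read 95.2 and 115 CPM in NT, 136 and 137 in c1 and 104 and 112 in c2. BAG3, the cochaperone of selective autophagy, read 54 and 64.1 CPM in NT, 63.1 and 64.5 in c1 and 67.2 and 65.3 in c2. In each of these 4 genes the uninduced NT library was the lowest, and the NT response was above that of both clones. HSPA8, HSPH1 and BAG3 were picked here after their values were seen, so their likeness to HSPA1A and HSPA1B is no further evidence. Over all 34 members the uninduced NT library was the lowest for 14. DNAJA1 was lowest in induced NT, HSP90AA1 in induced c1 and HSPB1 in uninduced c1.

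Over all members the responses centred near 0, and DNAJC7, described below, had the largest in c2. In NT 29 of 34 members had a response above 0 (49.4% of all genes), with a median of 0.06 on the log2 scale. The counts were 16 in c1 (49.9% of all genes) and 6 in c2 (49.4% of all genes), with medians of -0.02 and -0.04. The medians over all genes were 0.00 in each line, and the counts of members were the same with DESeq2 size factors. By group, the NT medians were 0.19 for HSP70 and HSP110, 0.05 for HSP90, 0.02 for HSP40, 0.05 for the small heat shock protein genes, 0.10 for BAG genes, 0.06 for HSP90 cochaperones and 0.03 for CCT. In c1 they were -0.10, -0.12, 0.02, 0.10, 0.03, 0.03 and -0.02, and in c2 -0.01, -0.03, -0.07, 0.05, -0.04, -0.04 and -0.07. Of members with the 3-unit element, the NT response was 0.30 for HSPA8, 0.09 for HSP90AA1, 0.01 for HSP90AB1, 0.00 for DNAJB6 and CHORDC1 and -0.03 for DNAJA1. In the same order of genes, c1 gave -0.10, -0.16, -0.08, -0.08, -0.24 and 0.02. For c2 the values were -0.03, -0.01, -0.05, -0.09, -0.05 and -0.16. The part of the element in these responses was not tested.

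**Figure D3:**
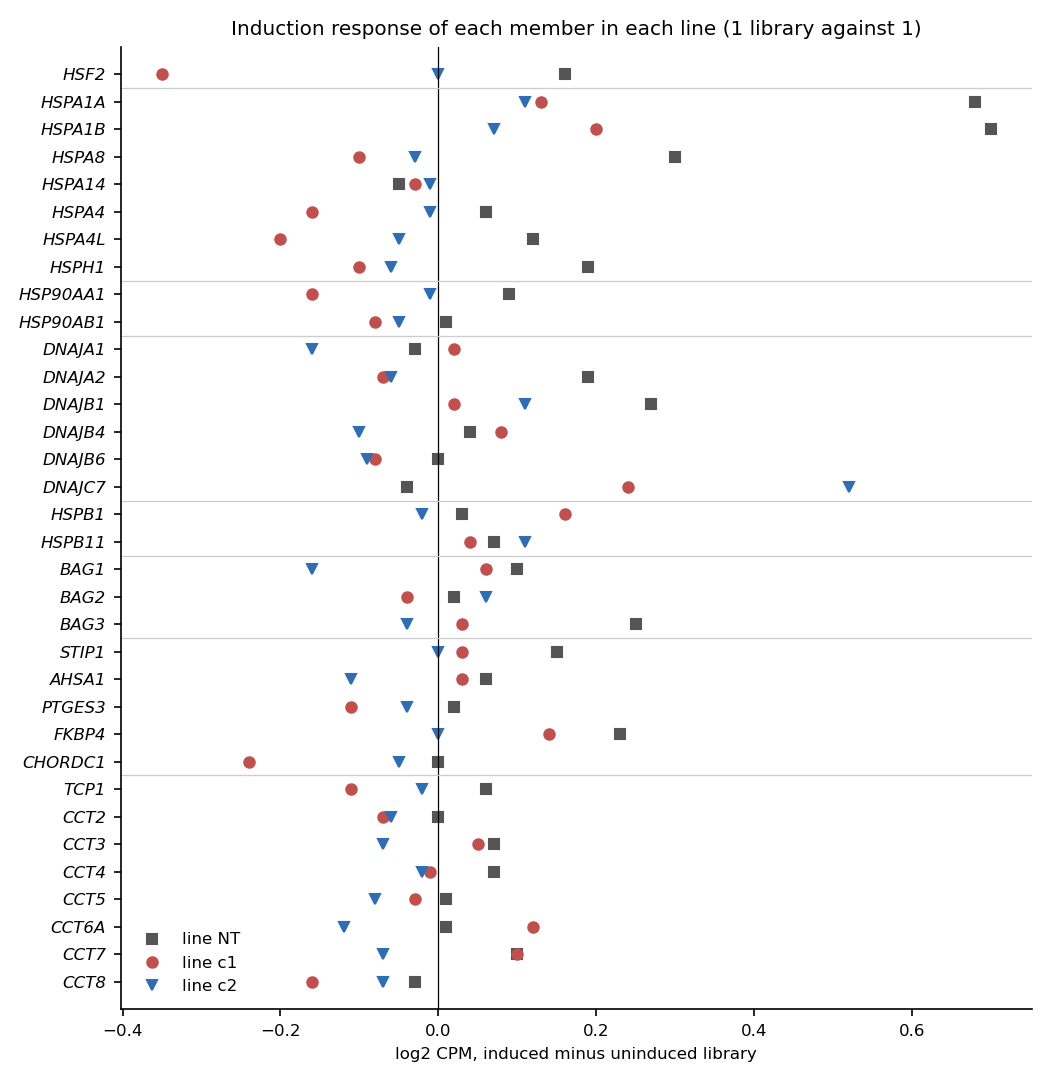
Induced minus uninduced log2 CPM (prior count 2) of the 34 members in NT (grey squares), c1 (red circles) and c2 (blue triangles), with horizontal lines between groups; each point sets 1 library against 1. HSPA1A and HSPA1B lie at 0.68 and 0.70 in NT and at 0.20 or less in the clones, and DNAJC7 lies at 0.52 in c2, 0.24 in c1 and -0.04 in NT.

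The difference between the response of the CDAN1 shRNA clones and the NT response was tested in a fit with 4 groups. HSPA1A was at -0.56 ± 0.13 (log2, SE) and HSPA1B at -0.57 ± 0.14, and edgeR gave both an adjusted p of 1 (unadjusted 0.0104 and 0.0124). Each line gave both states, so the fit was repeated with the line as a replicate block, where edgeR gave an adjusted p of 0.085 for HSPA1A, 0.111 for HSPA1B and 0.0942 for their sum. Neither edgeR fit called any of the 34 members, where the background was 0% of genes without the block and 0.17% (24 genes) with it. At an unadjusted p under 0.05 by edgeR there were 2 members without and 5 with the block, beside 79 and 739 of all 14156 genes. DESeq2 called 0 members without the block and 1 with it, HSPA1A, at an adjusted p of 0.0491. The median over members was -0.10, with 4 of 34 above 0, and over all genes 0.00. All of this rests on 1 NT pair, which the comparison cannot do without.

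The comparison of the 2 induced CDAN1 shRNA libraries with the 4 others called 0 members and 0% of genes by edgeR without the block, and 0 members and 0.0353% of genes (5 genes, CDAN1 among them) with it. Unadjusted p by edgeR was under 0.05 for 2 members without the block, DNAJC7 and CHORDC1, and for 1 with it. Of all 14156 genes, 324 and 1621 were under 0.05 in the same fits. DESeq2 called 0 members with or without the block, and 14 genes without it. The median log2 fold change over members was 0.00 without the block and -0.05 with it, against 0.00 over all genes in both. With the line as block, the NT libraries, both controls, add only to the estimate of the spread. The blocked fold change thus compares induced with uninduced libraries within c1 and c2. It is not a result apart from the blocked fit of the next comparison, where the median over members was also -0.05.

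Induced against uninduced CDAN1 shRNA clones gave 0 members called of 34 by edgeR, with 0% of genes called without the block and 1.34% (189 genes) with it, and DESeq2 called 0 members in either form. One member, DNAJC7, had an unadjusted p under 0.05 in either edgeR fit, beside 208 of all 14156 genes without and 1909 with the block. Pooling the 3 lines, 3 induced against 3 uninduced libraries, again gave 0 members by both tools, beside 0% of genes without and 0.12% with the block by edgeR. There, 0 members without and 3 with the block had an unadjusted p under 0.05 by edgeR, beside 223 and 1967 of all 14156 genes. The 4 comparisons share libraries and are not independent of each other.

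DNAJC7 (TPR2), which joins HSP70 and HSP90 through tetratricopeptide repeats, was the member nearest to a call within the clones. Its CPM was 68.1 in uninduced and 66.4 in induced NT, 61.2 and 72.2 in c1 and 57.7 and 82.6 in c2. In CPM the induced library was the higher in both clones and the lower in NT, and the 2 induced clone libraries were above the 4 others. Per length this did not hold. DNAJC7 read 65.3 and 69.8 TPM in uninduced and induced NT, 62.4 and 63.8 in c1 and 66.2 and 84.6 in c2. The induced library was then the higher in NT also, and induced c1 was below both NT libraries. In CPM, with the uninduced library at 100%, doxycycline gave 97.47% in NT, 118.1% in c1 and 143.1% in c2. The 95% counting limits were 91.33 and 104 for NT, 110.9 and 125.7 for c1, and 134.5 and 152.2 for c2. The log2 fold change of induced against uninduced clones was 0.38 ± 0.11 (adjusted p of 1 by edgeR), and with the line as block it was 0.38 ± 0.08 (adjusted p = 0.058 by edgeR, 0.719 by DESeq2). With transcript lengths as an offset it fell to 0.22 ± 0.15.

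A single coding transcript carried the pattern seen in CPM. DNAJC7-202 went from 709.3 to 1240.6 estimated reads in c1 and from 625.1 to 1235.9 in c2 with doxycycline, and from 948.5 to 795.8 in NT. Its share of the TPM of the gene was 28.5% and 45.6% in uninduced and induced c1, 24.1% and 35.7% in c2 and 38.1% and 30.7% in NT. The share of the shorter DNAJC7-218, of 832 bases, went the other way in all 3 lines, from 27.3% to 35.5% in NT, from 30.1% to 19.9% in c1 and from 36.5% to 26.5% in c2. A transcript of 1719 bases annotated for nonsense-mediated decay stood at 20.2% to 26.3%. The division of reads between transcripts is an estimate without an error in the deposited values.

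**Figure D4:**
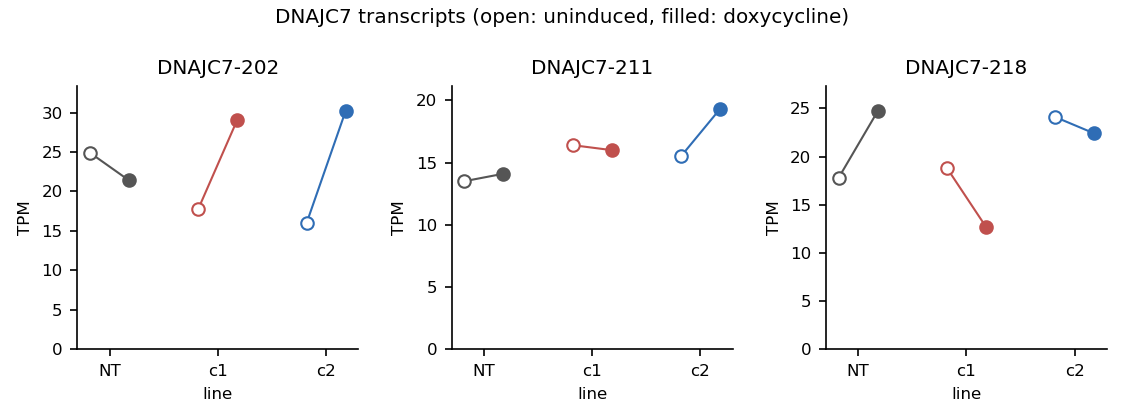
TPM of the 3 most abundant DNAJC7 transcripts in each library, with axes from 0, open for uninduced and filled for induced, joined within a line. DNAJC7-202 is higher with doxycycline in c1 and c2, at 29.1 and 30.2 TPM, and lower in NT, at 21.4.

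More members were called between lines than between doxycycline states, but the fits were not equally able to find a change. In simulated counts, edgeR without the block found 65.3% of 1.5-fold changes for c1 against NT. It found 2% for the pooled doxycycline states and 0.333% for the knockdown. With the block these shares were 64.3%, 62.7% and 53.3%. The simulated lines were otherwise alike for c1 against NT and differed as observed for the others. In c1 against NT edgeR called 5 of 34 members (14.7%), where 20.7% of all genes were called (9.6% higher, 11.1% lower), so the share of members did not stand above the background. The J-domain proteins DNAJA1, DNAJB1 and DNAJB4 were higher in c1, and the cochaperone BAG1 and the chaperonin subunit CCT5 were lower. DNAJA1, a type I J-domain protein, read 198 and 194 CPM in NT and 250 and 253 in c1, a log2 fold change of 0.36 ± 0.07 (adjusted p = 0.0103, edgeR). DNAJB1 rose by 0.38 ± 0.09 (adjusted p = 0.0279, edgeR) from the values above. DNAJB4 read 32.3 and 33.2 CPM in NT, 39.9 and 42.2 in c1 and 38.9 and 36.4 in c2. In all 3 genes both c1 libraries were above both NT libraries, which adds nothing to the calls by which they were picked.

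BAG1, an exchange factor that links HSP70 to the proteasome, read 53.7 and 57.6 CPM in NT, 43.6 and 45.5 in c1 and 64.9 and 58.1 in c2. CCT5 read 809 and 814 CPM in NT, 628 and 616 in c1 and 896 and 850 in c2, at -0.38 ± 0.05 in c1 against NT (adjusted p = 0.00329, edgeR). For both genes the c1 libraries were the lowest of the 6. Of these 5 members CCT5 was called in all 6 fits that left out 1 library, DNAJA1 in 4, DNAJB1 in 3, DNAJB4 in 1 and BAG1 in 0. Without the uninduced NT library 1 member was called and DNAJB1 was at 0.25, and without either c2 library 3 were called. With transcript lengths as an offset edgeR no longer called DNAJB1 (adjusted p = 0.0529) and BAG1 (adjusted p = 0.0859), and called CHORDC1 lower in c1 (-0.31 ± 0.09, adjusted p = 0.0487).

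With the doxycycline state as block, 8 members were called beside 28.1% of genes by edgeR. The 3 added were HSPA1B, HSPA4 and HSPB1. HSPA1B was higher in c1 by 0.47 ± 0.13 (adjusted p = 0.0309, edgeR), while the sum with HSPA1A was not called (0.36 ± 0.13, adjusted p = 0.0728, edgeR). Without the uninduced NT library the unblocked value for HSPA1B fell from 0.44 to 0.14. HSPA4, an HSP110-type exchange factor, read 384 and 399 CPM in NT, 474 and 424 in c1 and 416 and 413 in c2. HSPB1 read 253 and 258 CPM in NT, 212 and 236 in c1 and 283 and 279 in c2. Without the uninduced c1 library the unblocked values fell in size, for HSPA4 from 0.20 to 0.11 and for HSPB1 from -0.19 to -0.11.

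In c2 against NT 3 of 34 members (8.82%) were called by edgeR beside 15.4% of all genes (9.25% higher, 6.16% lower), and all 3 were higher in c2. Of the K562 markers 6 of 13 were lower and of the megakaryocyte markers 3 of 5 were higher in c2 in the same fit, and their part in the members' differences was not tested. HSPA14, an HSP70 bound to the ribosome, read 89.3 and 86.4 CPM in NT, 89.5 and 87.9 in c1 and 111 and 110 in c2 (0.33 ± 0.06, adjusted p = 0.011, edgeR). Its symbol covers 2 overlapping GENCODE genes, which were each called when kept apart, at 0.32 ± 0.07 and 0.37 ± 0.09. HSPH1 was at 0.34 ± 0.08 (adjusted p = 0.0248, edgeR) and DNAJB6 at 0.30 ± 0.06 (adjusted p = 0.0155, edgeR). DNAJB6 read 182 and 183 CPM in NT, 208 and 196 in c1 and 232 and 219 in c2, and the c2 values were above all others. With transcript lengths as an offset it was at 0.52 ± 0.07, and edgeR also called CHORDC1 lower in c2 (-0.37 ± 0.09, adjusted p = 0.0319). No member was called without the uninduced NT library or without either c2 library. With the block edgeR called 5 members beside 21.7% of genes, adding HSPA1B at 0.49 ± 0.13 (adjusted p = 0.0319) and DNAJA1 at 0.22 ± 0.06 (adjusted p = 0.0378), which read 241 and 215 CPM in c2. Unblocked, HSPA1B was at 0.46 and at 0.14 without the uninduced NT library, and DNAJA1 at 0.22 and at 0.13 without the uninduced c2 library. DESeq2 with the block did not call HSPA1B (adjusted p = 0.0787). The sum of HSPA1A and HSPA1B was at 0.39 ± 0.13 with the block (adjusted p = 0.0654, edgeR).

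**Figure D5:**
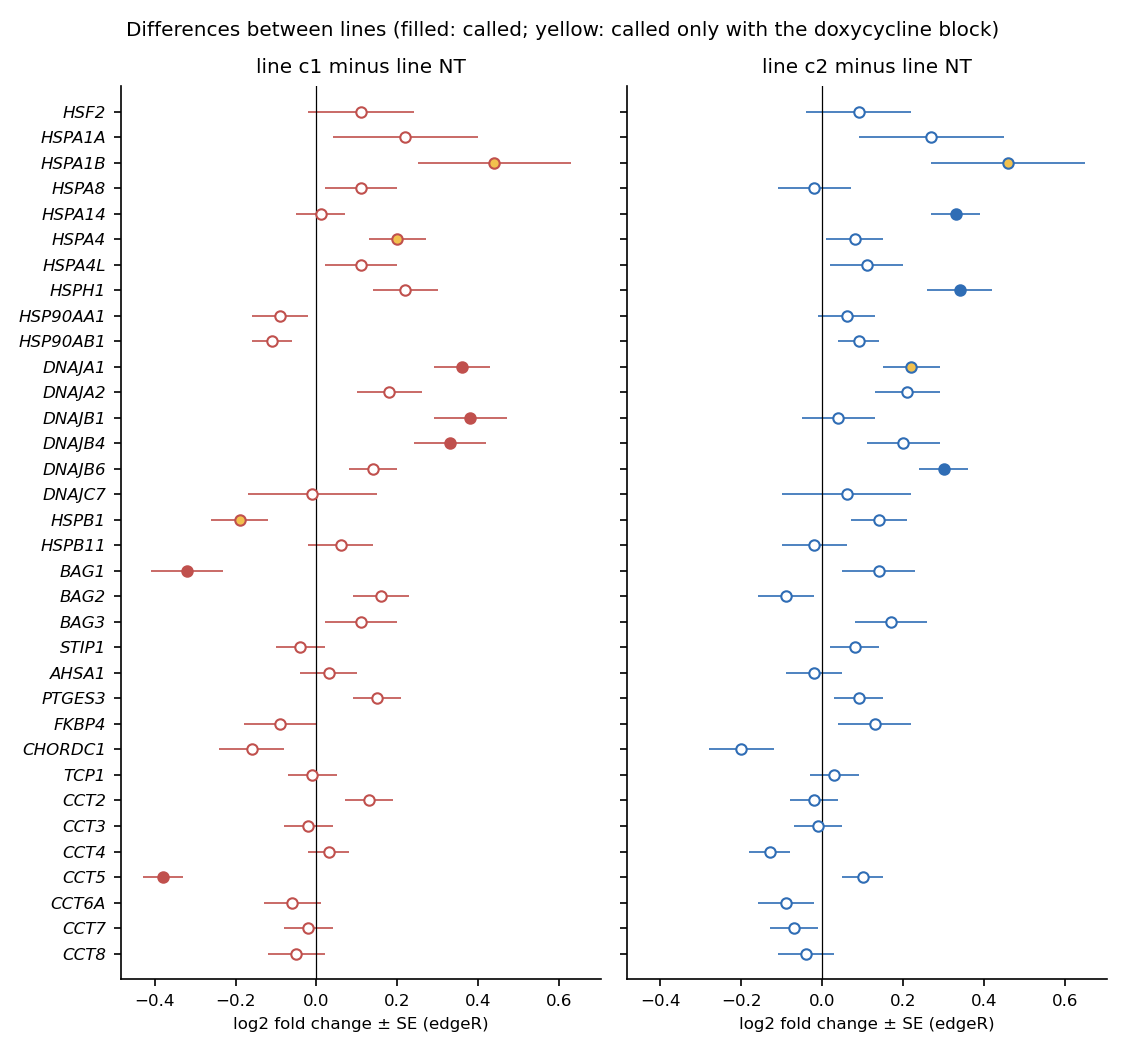
Log2 fold change ± SE from edgeR of c1 (left) and c2 (right) against NT for the 34 members, 2 libraries a line; filled points passed an adjusted p of 0.05, yellow points only with the doxycycline state as block, open points neither. CCT5 lies at -0.38 in c1 and at 0.10 in c2.

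The 2 CDAN1 shRNA clones differed from each other in 7 of 34 members (20.6%) by edgeR, beside 20.3% of all genes (12.7% higher and 7.58% lower in c2). In this fit 9 of 13 K562 markers were lower and 5 of 5 megakaryocyte markers higher in c2. BAG1 (0.46 ± 0.09, adjusted p = 0.00878, edgeR), CCT5 (0.49 ± 0.05, adjusted p = 0.000906, edgeR), HSPA14 (0.32 ± 0.06), HSPB1 (0.33 ± 0.07) and HSP90AB1 (0.19 ± 0.05) were higher in c2. DNAJB1 (-0.33 ± 0.09) and BAG2 (-0.25 ± 0.07) were lower. HSP90AB1 read 4167 and 4201 CPM in NT, 3982 and 3778 in c1 and 4523 and 4358 in c2, so NT lay between c1 and c2. BAG2 read 60.4 and 61.3 CPM in NT, 68.7 and 66.8 in c1 and 55.8 and 58.3 in c2, the reverse order. The block called 8 members beside 26.7% of genes and added FKBP4, which read 205 and 240 CPM in NT, 199 and 220 in c1 and 244 and 243 in c2. Its unblocked value was 0.22, and 0.14 without the uninduced c1 library. With the length offset edgeR no longer called HSP90AB1 (adjusted p = 0.0538), DNAJB1 (0.0667) and BAG2 (0.0997), and called DNAJB6 higher in c2 (0.33 ± 0.07, adjusted p = 0.021). The count fell to 1 without the uninduced and to 2 without the induced c2 library, and CCT5 was called in all 6 fits that left out 1 library.

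The subunits of the chaperonin did not move as 1 group. TCP1, CCT2, CCT3, CCT4, CCT6A, CCT7 and CCT8 spanned 1.06-fold to 1.16-fold in CPM over the 6 libraries and were called in none of the 7 comparisons by edgeR with or without the block, and CCT5 spanned 1.45-fold. The CCT sum spanned 1.06-fold, from 4995 CPM in induced c1 to 5299 in induced NT. HSF2, the heat shock factor with reads, stood at 27.6 and 30.9 CPM in NT, 35.5 and 27.9 in c1 and 31.2 and 31.2 in c2, and was called in none of the 7 either. Its level per length was 13.9 to 18.4 TPM.

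Other genes of the chaperone network were read from lists of named genes. Of 30 further cytosolic chaperone genes above the filter on low counts, of 32 listed, edgeR called 3 higher and 5 lower in c1 against NT, beside 20.7% of all genes, and 2 higher and 0 lower in c2 against NT, beside 15.4%. It called 0 in the doxycycline and knockdown comparisons with or without the block. HSPA6 (HSP70B′), a strictly stress-inducible HSP70, read 11.8 and 10.5 CPM in NT, 3.76 and 4.27 in c1 and 15.2 and 13.5 in c2, a log2 fold change of -1.47 ± 0.15 in c1 against NT (adjusted p = 0.0009, edgeR) and 1.84 ± 0.15 in c2 against c1 (adjusted p = 0.000218, edgeR). It was therefore lowest in c1, where DNAJA1, DNAJB1 and DNAJB4 were higher than in NT. UNC45A, a myosin chaperone, followed at -0.72 ± 0.08 in c1 against NT, from 122 and 133 CPM to 71.7 and 82.6. HSPB8, the small heat shock protein that works with BAG3, was at 3.39 ± 0.58 but under 1 CPM in every library. It read 0.0743 and 0.074 CPM in NT, 0.724 and 0.914 in c1 and 0.373 and 0.525 in c2. It thus passed the filter on low counts only through the clone libraries, so its calls against NT carry no weight.

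In c2 against NT the called genes of that list were DNAJC2, a ribosome-bound J-domain protein (0.36 ± 0.07, adjusted p = 0.0118, edgeR), and HSPB8, with the limit just given. DNAJC2 read 111 and 106 CPM in NT and 140 and 139 in c2. Of 14 prefoldin and CCT partner genes, VBP1, a prefoldin subunit, was higher in c1 than in NT (0.56 ± 0.12), and the tubulin cofactor TBCD was lower in c2 than in NT (-0.42 ± 0.06). Of 11 tested HSF1 targets outside the cytosolic chaperones, SERPINH1 (HSP47), the collagen chaperone, was higher in both clones than in NT, with 205 and 202 CPM in NT, 279 and 309 in c1 and 263 and 246 in c2 (0.53 ± 0.07 and 0.32 ± 0.07). In c1 against NT 1 of these 14 and 2 of these 11 genes were called, and in c2 against NT 1 and 1, beside the same 20.7% and 15.4% of all genes. Both contrasts use the same NT libraries. Between c2 and c1, TBCD was lower in c2 (-0.48 ± 0.06), as was FKBP5, an HSP90 cochaperone of the glucocorticoid receptor (-0.41 ± 0.06), which read 242 and 241 CPM in c1 and 173 and 189 in c2.

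Of 5 cell death regulators tied to HSP70 in red cell maturation, GATA1 and BCL2L1 were called in no comparison by edgeR, and 1 of the 5 was called in each clone against NT, beside 20.7% and 15.4% of all genes. APAF1, the scaffold of the apoptosome, read 33.7 and 34.3 CPM in NT, 39.2 and 38.7 in c1 and 50.5 and 53.6 in c2, and was higher in c2 than in NT (0.61 ± 0.08, adjusted p = 0.00236, edgeR). With the block XPO1, the exportin of HSP70, was added in c1 against NT (0.17 ± 0.05, adjusted p = 0.0416, edgeR). Between c2 and c1, APAF1 was higher in c2 (0.42 ± 0.08). None of the 5 was called by edgeR between doxycycline states, with or without the block.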

How the data were processed

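Per the file headers, the deposited tables give for each of 167268 transcripts an estimated count of reads and a TPM, which the authors computed with Salmon 1.5.2, per the submitters' processing notes. No source used here names its annotation or strand setting. Transcripts were assigned to symbols by GENCODE 29 (151039 by its annotation, 3361 more by its table of gene symbols), and 12868, holding 4.908% to 5.106% of the reads, stayed unassigned. Coordinates are on GRCh38, promoter windows from RefSeq. Summed counts were rounded, genes with low counts removed (filterByExpr, minimum count 10), and 14156 genes tested with edgeR 4.0.16 (quasi-likelihood, two-sided, Benjamini-Hochberg over all genes, threshold 0.05) in R 4.3.3, with DESeq2 1.42.0 as an alternative. CPM uses TMM scaling. Scripts were tested on simulated data. Each line gave both states: within a line, deviations from the state means correlated across genes (r = 0.612, 0.682 and 0.746 for NT, c1 and c2), so values with the replicate block stand beside the calls. Members, lists and tests were chosen with earlier results of these data known. Genes named with values were members called in any comparison, the highest and lowest TPM of each group, the 5 of widest range, the heat shock factors and, from other lists, at most 3 called genes a list and comparison. BAG3, HSPH1, HSPA8 and DNAJC7 were named in the doxycycline states after their values were seen. Some genes of the other lists are not reported here.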

Additional observations from a re-analysis of the deposited data

Results flagged for a closer look

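In the 4 libraries that serve as controls of the knockdown comparison (both NT libraries and the uninduced libraries of c1 and c2), 2 of 34 members had 1 library far from the other 3 by Dixon's test at the 95% level. Chance alone flags about 1 in 20 such groups. HSPA14 was at 111 CPM in uninduced c2 and at 86.4 to 89.5 CPM in the others. CCT2 was at 541 CPM in uninduced c1 and at 482 to 485 CPM in the others. The induced library of the same line was at 110 CPM for HSPA14 (c2) and at 516 CPM for CCT2 (c1), below its uninduced partner and above the other control libraries.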

How the results depend on the processing

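No alternative reversed a direction of a called member. Without the replicate block edgeR called 0 genes in the 4 knockdown and doxycycline comparisons. With the block the counts were 5 for knockdown against all controls, 189 for induced against uninduced clones, 24 for the difference of responses and 17 for all 3 lines. DESeq2 gave 14, 2, 5 and 6 in that order, and DESeq2 with the block, added after the data were seen, 116, 68, 9 and 146. Members called stayed at 0 in these 4 comparisons except for 1 in the difference of responses by DESeq2 with the block. For c1 against NT, 2929 genes became 1835 with transcript lengths as an offset, and leaving out 1 library gave 1059 to 2938 genes and 1 to 5 members. Keeping unassigned transcripts gave 3 members instead of 5, and the replicate block 8. For c2 against NT, 2181 genes became 1317 with unassigned transcripts kept and 1411 with the length offset, leaving out 1 library gave 807 to 2793 genes and 0 to 4 members, and the block gave 5 members instead of 3. For c2 against c1, 2867 genes became 1911 with unassigned transcripts kept, and leaving out 1 library gave 1155 to 2554 genes and 1 to 7 members. The cause of these shifts was not tested, other than that leaving out a library leaves fewer samples. Where it left a line or group with 1 library, that library was assumed to vary like the others. The fit without either NT library could not be had for the difference of responses. Where members were matched by the annotation alone, HSPA1A and HSPA1B dropped out, which was tried after the data were seen.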
